A study of Drosophila melanogaster with 8 samples.

Results

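Total RNA of testis lysates was compared between Drosophila melanogaster males whose early germ cells made HA-tagged HOW(S) and males of the parent driver line. The comparison comprised 4 of the 8 libraries of the study, 3 HOW(S)-HA inputs and 1 nanos-GAL4 input, each taken from the cleared lysate before any anti-HA beads were added. Of the 30070 rows listed for each library, 16772 transcripts had at least 20 estimated reads in at least 3 of the 4 inputs and were tested.

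HOW(S)-HA males had the genotype UAS-HOW-S-HA/nanos-GAL4, and the controls were nanos-GAL4/nanos-GAL4. The driver is active in germline stem cells and early spermatogonia, so most cells of a testis lysate do not carry the tagged protein. The controls lacked the transgene and also carried the driver on both homologues, and the effects of transgene, driver dose and genetic background cannot be told apart. Reproductive systems of males aged 0 to 3 days, mated and unmated, were dissected in both lines and testes of many males were pooled for each lysate. The HOW(S)-HA replicates are described as biologically independent, each from its own pool of testes. A change in the number of cells of a type and a change of RNA per cell cannot be told apart in such a lysate. Defining markers of the testis and of its cell types were not matched to identifiers, so the tissue label was not tested.

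HOW (Held out wings) is an RNA-binding protein of the STAR family, related to mammalian Quaking and to GLD-1 of Caenorhabditis elegans. STAR proteins bind short motifs, mostly in untranslated regions, and regulate the splicing, stability and translation of their target mRNAs. HOW(S) is the short, cytoplasmic isoform, and in the testis HOW is found in germline stem cells and their first descendants, where it is needed to keep the stem cells. Spermatocytes and spermatids make up much of the testis and transcribe a large, testis-specific set of genes. A comparison of inputs asks whether the RNA offered to the beads was the same with and without the tagged protein.

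Input 1 of HOW(S)-HA held 9.13 M estimated reads, and the other 3 inputs held between 19.9 M and 20.8 M. Between 20556 and 22491 transcripts had any reads. The tested transcripts took between 99.2% and 99.3% of all reads. No transcript passed an adjusted p of 0.05 together with a 2-fold difference in edgeR's quasi-likelihood F-test, so 0.00% of the 16772 were called. The lowest adjusted p reached was 0.108. Without adjustment, p was under 0.05 for 960 transcripts that were higher in HOW(S)-HA (5.72%) and 297 that were lower (1.77%). With the thresholds unchanged, DESeq2's Wald test called 408 higher and 24 lower. The tested transcripts were centred near 0, with a median log2(fold change) of 0.003. The single nanos-GAL4 input is assumed by the fit to vary as the 3 HOW(S)-HA inputs do, which leaves 2 residual degrees of freedom, and a permutation of 3 against 1 labels cannot give a p below 0.25 for a single value, so none was computed.

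The spread among the HOW(S)-HA inputs was uneven. Input 2 and input 3 differed at least 2-fold at 6.83% of tested transcripts. Input 1 differed by as much from input 2 at 17.8% and from input 3 at 18.01%. The nanos-GAL4 input differed at least 2-fold from input 2 at 11.1%, from input 3 at 11.2% and from input 1 at 22.6%. Thus the control lay nearer to inputs 2 and 3 than input 1 did. The correlation of log2 normalised RPM across transcripts, which are not independent replicates, was 0.93 between inputs 2 and 3, 0.89 between each of them and the control, 0.78 between input 1 and each of them, and 0.74 between input 1 and the control. On normalised RPM (estimated reads scaled to library size with TMM factors), the nanos-GAL4 value was outside the range of the 3 HOW(S)-HA inputs at 57.4% of transcripts, above it at 29.0% and below it at 28.5%.

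The spread was smaller among transcripts with whole read numbers. Salmon, the program that assigned the reads, divides a read that maps to several transcripts among them, so an estimated read number is usually not whole. Of the tested transcripts, 4844 (28.9%) had whole read numbers in all 4 inputs, within a tolerance of 0.0005, and are called whole-read transcripts below. A whole number is the mark of reads that were not divided, but it does not show this for each transcript, since 0 is also whole and Salmon can give all shared reads to 1 isoform. They were shorter than the others, with a median of 1440 against 2299.5 nucleotides. Among them inputs 2 and 3 differed 2-fold at 0.599%, input 1 differed from inputs 2 and 3 at 3.45% and 3.36%, and nanos-GAL4 differed from inputs 2 and 3 at 4.29% and 4.15%. Here the control lay as far from inputs 2 and 3 as input 1 did, or slightly farther. The common dispersion, the squared coefficient of variation beyond counting error, was 0.0199 over these transcripts and 0.2003 over all that were tested.

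**Figure D1:**
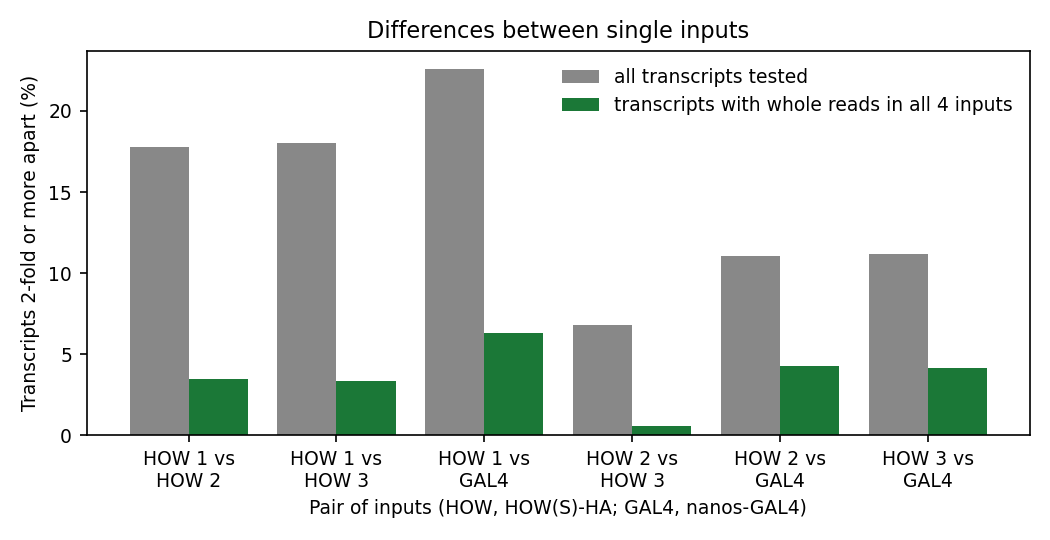
Share of transcripts (percent, y axis) whose normalised RPM were at least 2-fold apart in each pair of inputs (x axis), over all 16772 tested transcripts (grey) and the 4844 with whole reads in all 4 inputs (green). Inputs 2 and 3 of HOW(S)-HA are the closest pair in both sets, at 6.83% and 0.599%, and every pair with input 1 stands higher over all transcripts than the pairs of nanos-GAL4 with inputs 2 and 3.

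When the same F-test was run on whole-read transcripts alone, a filter chosen after the data had been seen, 25 were higher in HOW(S)-HA (0.516%) and 2 were lower (0.0413%). The lowest adjusted p belonged to a transcript with 0 reads in nanos-GAL4. It passed the filter only through the HOW(S)-HA inputs, so its p is not given as support. Before adjustment, p was under 0.05 for 371 higher (7.66%) and 203 lower transcripts (4.19%). Each of the 27 had a nanos-GAL4 TPM outside the range of the 3 HOW(S)-HA inputs, which the test favours, and in the fit on all transcripts their adjusted p values were between 0.108 and 0.274. DESeq2's Wald test on all transcripts also called all 27. It used the same 4 libraries, and every fit here shares the single nanos-GAL4 input, so such agreement is no independent support. Of the 25, 18 had under 20 reads in nanos-GAL4 and passed the filter only through the HOW(S)-HA inputs, where they are high, so the count of 25 is a description of these libraries and no measure of how many RNAs differ. With at least 20 reads required in all 4 inputs, which leaves the other 7 and both lower transcripts in the test, the F-test called 0 of 4490, although 350 were higher and 182 lower at an unadjusted p under 0.05, and limited to the depth of input 1 it called 9 higher and 2 lower. Without input 1 the counts were 99 higher and 75 lower, without input 2 they were 36 and 5, and without input 3 they were 21 and 1. All 27 were among the calls without input 1, 26 among those without input 2 and 18 among those without input 3.

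Of the 25 transcripts higher in HOW(S)-HA, 12 were listed at 0 reads in nanos-GAL4, against between 22 and 593 reads in each HOW(S)-HA input. Taken against a floor of 3 reads in the nanos-GAL4 library, which is 0.150 RPM (reads scaled to the library total alone), they were at least 15.6-fold to at least 184-fold higher, with a median of at least 40.0-fold. A further 6 had between 1 and 10 reads in nanos-GAL4. The other 7 had between 23 and 248 reads there, and their log2(fold change) was between 1.69 and 3.19. The 25 ranged from 359 to 11753 nucleotides in length, and their mean TPM in the HOW(S)-HA inputs ranged from 0.246 to 79.1 with a median of 1.86. They were mostly scarce RNAs, and so was much of the tested set. Over the 4 inputs, 4297 tested transcripts had a mean TPM under 1 and 4119 one from 1 to 3. No gene name is paired with the identifiers of the 25 here.

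**Figure D2:**
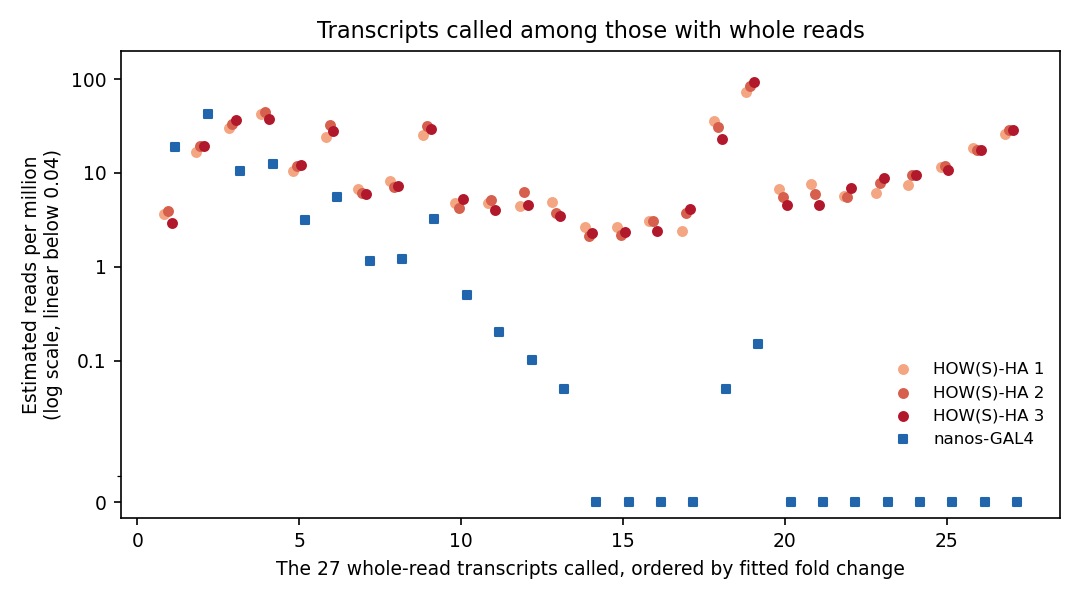
Estimated RPM in each input (y axis, log scale, linear below 0.04) of the 27 whole-read transcripts called, ordered by fitted fold change (x axis), with circles for HOW(S)-HA inputs 1, 2 and 3 and squares for nanos-GAL4. The square lies above the circles for the first 2 and below them for the other 25, and 12 squares are at 0. The circles lie close together for each transcript, a pattern the test favours because it takes its spread from the HOW(S)-HA inputs.

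The most abundant of the 25, FBtr0089858, is a transcript of 593 nucleotides. It had 72.5, 85.3 and 92.3 RPM in HOW(S)-HA inputs 1, 2 and 3 against 0.150 in nanos-GAL4. The corresponding estimated reads were 662, 1771 and 1846 against 3. The RNA was thus well measured in all HOW(S)-HA inputs and close to 0 in the control. The mean ratio was 554, with a 95% exact Poisson interval of 190 to 2687 that covers only the counting error of the 3 control reads. It too passed the filter only through the HOW(S)-HA inputs, so its ratio is given as a description, with no test. A second abundant transcript, FBtr0089742 of 1152 nucleotides, shares some reads with others and was not among the 25. Its TPM was 194, 222 and 209 in HOW(S)-HA inputs 1, 2 and 3, with a mean of 208 ± 13.99 (SD, n = 3), and 1.90 in nanos-GAL4. A log2(fold change) of 7.18 followed (standard error 0.27, adjusted p = 0.108 in edgeR's F-test over all transcripts), which did not pass.

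The 2 whole-read transcripts called lower had reads in all 4 inputs. FBtr0076749, of 410 nucleotides, had TPM values of 5.996, 8.63 and 6.34 in HOW(S)-HA, a mean of 6.99 ± 1.43 (SD, n = 3), and 49.3 in nanos-GAL4. This was 33, 81 and 59 reads against 377. Its log2(fold change) was -2.42 (standard error 0.19, adjusted p = 0.0300 in edgeR's F-test of whole-read transcripts, 0.190 over all). FBtr0070434, of 1936 nucleotides, was named because it was the only other call in this direction. It had TPM values of 2.64, 4.06 and 4.01 in HOW(S)-HA against 10.4 in nanos-GAL4, a log2(fold change) of -1.15 (standard error 0.12, adjusted p = 0.0474 in the same test, 0.270 over all). The control was above all 3 HOW(S)-HA inputs for both.

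The surplus of higher calls has to be read beside the filter. A transcript absent from nanos-GAL4 alone could pass the requirement of 20 reads in 3 inputs, whereas one absent from all 3 HOW(S)-HA inputs could not. Of the tested transcripts, 218 were listed at 0 in nanos-GAL4 with at least 20 reads in each HOW(S)-HA input, and 12 of these were whole-read. In the opposite direction, 315 transcripts had at least 20 reads in nanos-GAL4 and 0 in all 3 HOW(S)-HA inputs, 22 of them whole-read, and none was tested. Single HOW(S)-HA inputs showed such patterns too. Input 1 alone was listed at 0 for 819 transcripts with at least 20 reads in the other 3 inputs (18 whole-read), input 2 for 145 (6 whole-read) and input 3 for 133 (4 whole-read). Transcripts with at least 20 reads in 1 input and 0 elsewhere numbered 183 for input 1, 248 for input 2 and 225 for input 3, with 16, 27 and 18 whole-read. The 22 whole-read transcripts found in nanos-GAL4 alone thus lay within the range of the same counts for single HOW(S)-HA inputs. The 12 at 0 in nanos-GAL4 lay below the 18 of input 1, the input of lowest depth. They were above the 6 and 4 of inputs 2 and 3, whose depth was like that of the control. Without the limit to whole reads, the 218 likewise lay below the 819 of input 1 and above the 145 and 133 of inputs 2 and 3. The 315 was above the count of each HOW(S)-HA input. With at least 100 reads in place of 20, nanos-GAL4 alone was at 0 for 3 whole-read transcripts, against 6, 0 and 0 for inputs 1, 2 and 3, and 7 were found in nanos-GAL4 alone against 2, 3 and 5. A filter of at least 80 reads in total was also chosen after the data had been seen. It gave 21 higher and 5 lower calls among 4988 whole-read transcripts. Among all 18480 it gave 0 calls, with 965 higher and 411 lower at an unadjusted p under 0.05 in the F-test. This filter keeps part of the asymmetry, since the 315 transcripts found in nanos-GAL4 alone had a median of 54.5 reads.

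Names could be given to 54 transcripts of 36 genes or gene pairs, from isoforms that the study identifies and from identifiers listed as synonyms in RefSeq's annotation, and 40 of these passed the filter. EdgeR's F-test over all transcripts called none of the 40, whereas DESeq2's Wald test called Cdk12-RA, eIF3c-RB and how-RF. The 7 whole-read ones were not called in their own fit either, where the lowest adjusted p was 0.601. Without adjustment, 5 of the 40 had a p under 0.05, which is 12.5% against 7.49% of all tested transcripts. These 5 include how-RF, which was at 0 reads in nanos-GAL4 and passed the filter only through the HOW(S)-HA inputs. The nanos-GAL4 input was above all 3 HOW(S)-HA inputs for 11 (27.5%, against 29.0% of all) and below them for 15 (37.5%, against 28.5%) on normalised RPM. On TPM it was outside the range for 71.9% of all tested transcripts. Among the named ones it was above for 23 (57.5%, against 61.6% of all) and below for 7 (17.5%, against 10.3%). The 2 scales differ because TPM divides each value by transcript length and then by a total over all transcripts. Transcripts of up to 300 nucleotides took 68.2%, 60.6% and 62.3% of that total in HOW(S)-HA inputs 1, 2 and 3 against 57.1% in nanos-GAL4, so TPM of longer RNAs was mostly higher in nanos-GAL4. The sign of the difference depended on the scale for 14 of the 39 named transcripts with reads in nanos-GAL4. These were higher in HOW(S)-HA as a fitted fold change of reads and lower as a ratio of TPM, namely alpha-Spec, B52-RK, CG16974, Hipk-RA, how-RC, jvl-RF, Ldh-RA, Mapmodulin-RA, pelo-RA and the dicistronic transcripts of Rpp14a, Dpm2, Mvk, Polr3K and Tfb5. No direction is drawn from those of their values that are given below.

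**Figure D3:**
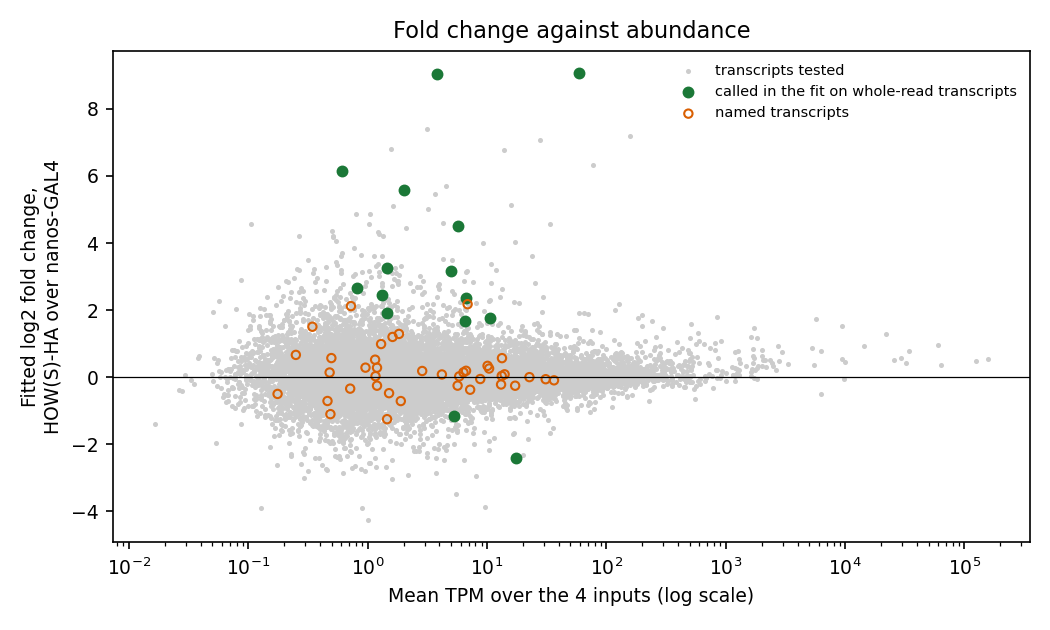
Fitted log2(fold change) of HOW(S)-HA over nanos-GAL4 (y axis) against mean TPM over the 4 inputs (x axis, log scale) for tested transcripts with reads in nanos-GAL4. The spread narrows up to a TPM of about 100, the 15 whole-read calls drawn in green lie mostly toward the edges of the cloud or beyond, and the 39 named transcripts drawn as open circles lie within it or near its upper edge, while the 218 transcripts at 0 in nanos-GAL4 are left out because their fitted value depends on the prior count.

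The gene of the transgene was examined first, although its RNA was made from the transgene only in early germ cells, a small part of the lysate. The how gene lies on chromosome 3R from 22042191 to 22079321 of Release 6, and 6 of its isoforms were listed. Their summed TPM was 2.73, 3.56 and 3.19 in the HOW(S)-HA inputs, a mean of 3.16 ± 0.419 (SD, n = 3), and 3.65 in nanos-GAL4. Their summed RPM were 26.3, 24.3 and 22.9, a mean of 24.5 ± 1.73 (SD, n = 3), and 20.7 in nanos-GAL4. The control was therefore above all HOW(S)-HA inputs on TPM and below them all on RPM, and no direction for how RNA holds on both scales. The how values thus do not check the labels of the libraries. No single how isoform passed edgeR's F-test, whereas DESeq2's Wald test called how-RF. The isoform how-RB (FBtr0084178), from which HOW(S) is translated, had 2.70, 3.56 and 2.37 normalised RPM in HOW(S)-HA against 3.65 in nanos-GAL4, and TPM values of 0.457, 0.844 and 0.538 against 1.02. The control was above all 3 HOW(S)-HA inputs on both scales. The log2(fold change) was -0.34 (standard error 0.41, adjusted p = 0.925 in edgeR's F-test). The how-RB estimate thus showed no increase. Whether transgene RNA was counted under another isoform was not tested. The isoform how-RF was listed at 0 in nanos-GAL4 and had 54.9, 44.8 and 114 estimated reads in the HOW(S)-HA inputs. It passed the filter only through the inputs where it is high, so its call is a description and no support is drawn from it. In input 1, how-RA was listed at 0 and how-RD held 19.8% of the gene's reads, while how-RD was at 0 in the other 3 inputs. The division of how reads among isoforms thus moved between replicates.

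Isoforms of 1 gene also had differences of opposite sign among transcription and chromatin factors. Cdk12 encodes a kinase of the C-terminal domain of RNA polymerase II and lies on chromosome 3L from 21516306 to 21522684. Normalised RPM of its isoform Cdk12-RA (FBtr0078358, 4772 nucleotides) were 12.3, 13.5 and 11.5 in HOW(S)-HA against 2.85 in nanos-GAL4. This gave a log2(fold change) of 2.12 (standard error 0.28, unadjusted p = 0.00239, adjusted p = 0.231 in edgeR's F-test), the lowest adjusted p of the named transcripts. DESeq2's Wald test gave it an adjusted p of 0.000206. The other isoforms were highest in the control, with Cdk12-RB at 21.7, 24.0 and 13.5 against 32.3 and Cdk12-RC at 62.9, 76.0 and 89.1 against 98.5. Over all 3 isoforms the gene had 94.3, 114 and 113 RPM in HOW(S)-HA against 134 in nanos-GAL4. Cdk12-RA held 12.6%, 11.8% and 10.1% of the gene's reads in HOW(S)-HA against 2.12% in nanos-GAL4. Its estimated share was thus higher in HOW(S)-HA, against the direction of the gene sum. None of the 3 isoforms was a whole-read transcript, and error in the division of reads was not tested.

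D1 encodes an AT-hook protein that binds satellite DNA. Its isoform D1-RC held 57.1%, 43.6% and 47.4% of the gene's reads in HOW(S)-HA against 35.6% in nanos-GAL4, and D1-RA held 42.9%, 55.7% and 52.6% against 64.4%. The summed RPM of D1 were 133, 135 and 140 against 129, below all 3 HOW(S)-HA inputs, whereas its summed TPM was 23.2, 31.7 and 31.9 against 35.8, above them all. The log2(fold change) was 0.57 for D1-RC (standard error 0.22, adjusted p = 0.697 in edgeR's F-test) and -0.25 for D1-RA. Mapmodulin, a chromatin and microtubule-associated protein of the ANP32 family, had a like pattern. Mapmodulin-RB held 12.96%, 11.3% and 15.4% of the gene's reads in HOW(S)-HA against 5.98% in nanos-GAL4, with a log2(fold change) of 1.29 (standard error 0.39, unadjusted p = 0.0349, adjusted p = 0.607 in edgeR's F-test). The gene's sum was 111, 83.3 and 86.0 RPM against 85.4, where the control lay inside the range, and its summed TPM was 15.98, 16.7 and 16.8 against 20.6. The isoform Mapmodulin-RC was listed at 0 in input 1 and Mapmodulin-RD had reads in input 1 alone.

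**Figure D4:**
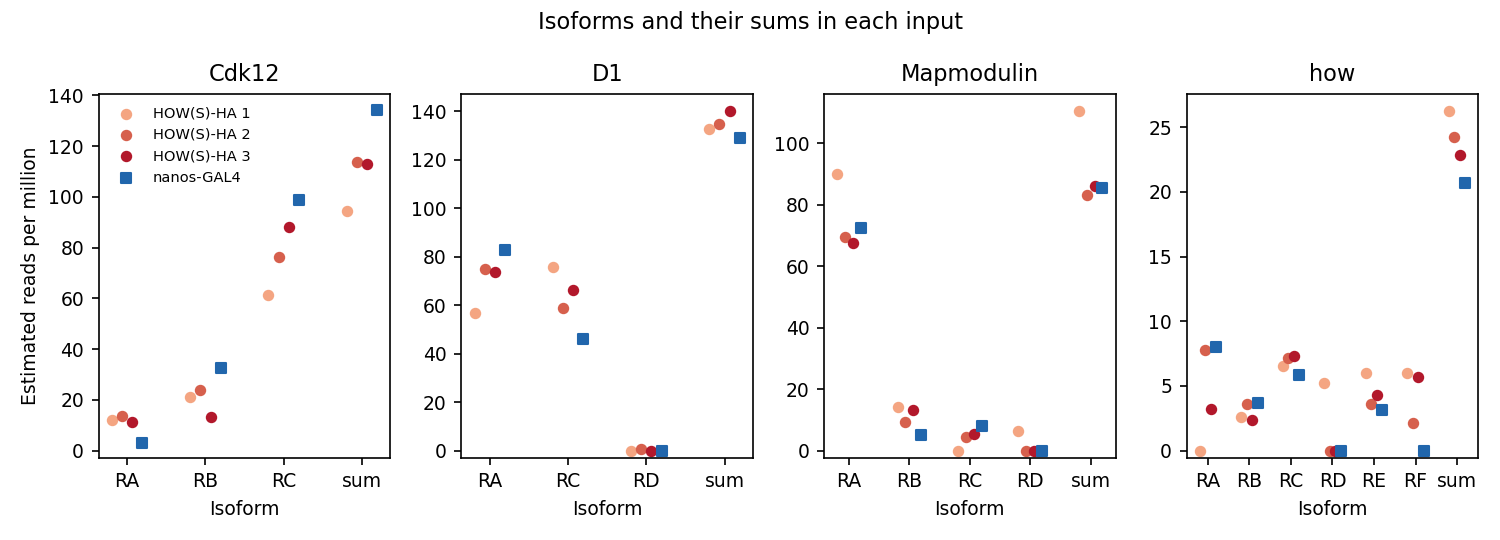
Estimated RPM (y axis) of each listed isoform and of their sum (x axis) for Cdk12, D1, Mapmodulin and how, with circles for HOW(S)-HA inputs 1, 2 and 3 and squares for the nanos-GAL4 input. The square for Cdk12-RA is below the 3 circles while the square for the Cdk12 sum, at 134, is above them, and the square for the Mapmodulin sum lies among its circles.

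Other chromatin factors gave less. The sle transcript, which encodes the nucleolar protein slender lobes, had 16.3, 17.3 and 25.9 normalised RPM against 9.99 (log2(fold change) 0.99, adjusted p = 0.702 in edgeR's F-test). The kis transcript, of a CHD-type chromatin remodeller, was at 77.7 and 119 in inputs 2 and 3 and 91.5 in nanos-GAL4, but at 0 in input 1. A kis difference between the lines was not detectable with that spread. The histone H4 replacement transcript His4r had 11.6, 21.5 and 9.87 estimated reads in HOW(S)-HA against 39.6 in nanos-GAL4 and did not pass the filter, and HmgD-RD, of an HMG-box protein, stayed under 20 reads in each input.

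Among factors of splicing and translation, eIF3c-RB (FBtr0340269), an isoform for a subunit of initiation factor eIF3, had 17.2, 18.1 and 16.1 normalised RPM in HOW(S)-HA against 7.44 in nanos-GAL4. The 3 inputs were close together and the control was below them, with a log2(fold change) of 1.20 (standard error 0.22, unadjusted p = 0.00688, adjusted p = 0.362 in edgeR's F-test). DESeq2's Wald test gave 0.0216. Other isoforms of eIF3c were not matched to identifiers, so its gene sum was not computed. The transcript pelo-RA, of the ribosome rescue factor Pelota, was a whole-read transcript and had 66.4, 70.9 and 71.3 normalised RPM against 67.7, inside the range, while its TPM was 9.61, 14.1 and 13.6 against 15.9, above it. The split of reads among isoforms of B52, an SR splicing factor, differed between replicates. B52-RF held 91.5%, 0% and 20.1% of the reads of the 3 listed isoforms in HOW(S)-HA against 23.6% in nanos-GAL4, and neither tested isoform differed beyond that spread. The initiation factor isoform eIF5-RC was listed at 0 in input 1 and was at 1.54 and 1.51 in inputs 2 and 3 against 1.499.

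No signalling or structural transcript passed the test. Hipk-RA (FBtr0072552), of the homeodomain-interacting protein kinase, had 38.1, 29.6 and 30.6 normalised RPM in HOW(S)-HA against 26.9 in nanos-GAL4 (log2(fold change) 0.29, standard error 0.23, adjusted p = 0.876 in edgeR's F-test). On TPM it was at 0.900, 0.961 and 0.951 against 1.03, so the control was below the range on the former scale and above it on the latter. The transcript jvl-RF (FBtr0305694), of the microtubule-associated protein javelin-like, had 20.9, 21.9 and 20.8 normalised RPM against 20.7 and a log2(fold change) of 0.03 with a standard error of 0.17, but TPM values of 0.871, 1.25 and 1.14 against 1.40, so the control was below the range on RPM and above it on TPM. The alpha-Spec transcript, of the membrane skeleton protein alpha-spectrin, had 181, 126 and 152 normalised RPM against 138, and TPM values of 5.90, 5.65 and 6.54 against 7.31. LanA, the laminin alpha chain of basement membranes, was a whole-read transcript and had 34.3, 41.7 and 36.0 against 44.5, with a log2(fold change) of -0.25 (standard error 0.18, adjusted p = 0.866 in edgeR's F-test). The transcript of fend had 3.94, 3.36 and 3.89 against 6.09 (log2(fold change) -0.71, adjusted p = 0.739), and that of the kinase Dyrk3 had 4.50, 3.32 and 1.77 against 2.00.

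The GATOR2 complex activates TORC1 signalling and, in the Drosophila ovary, its subunit Mio acts in the oocyte. Normalised RPM of mio were 33.6, 43.8 and 47.3 in HOW(S)-HA against 49.5 in nanos-GAL4, from whole reads. Those of Wdr59 were 96.7, 107 and 115 against 123. Both were highest in the control and neither passed, with log2(fold change) of -0.25 (standard error 0.25) and -0.22 (standard error 0.15) and adjusted p values of 0.904 and 0.855 in edgeR's F-test. The listed Wdr24 transcript had 76.7 reads in input 2 and 0 in the other 3 inputs, and was not tested.

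Uba1, the ubiquitin-activating enzyme, was the most abundant named transcript. It had 415, 413 and 441 normalised RPM in HOW(S)-HA against 451 in nanos-GAL4, from between 3692 and 9031 whole reads. The values nearly coincide on this scale, with a log2(fold change) of -0.09 (standard error 0.11, adjusted p = 0.921 in edgeR's F-test), whereas TPM was 26.4, 36.0 and 36.9 against 46.4. Ldh, lactate dehydrogenase, had 52.5, 34.6 and 32.4 RPM over its 4 listed isoforms against 28.7, with input 1 apart from the others. The isoform Ldh-RA took all reads of the gene in input 2 and nanos-GAL4, and Ldh-RB and Ldh-RD had none in any input.

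Dicistronic transcripts, which carry 2 genes on 1 RNA, accounted for 8 of the 40. The one for CG45089 and ND-MNLL, a subunit of respiratory complex I, had 4.50, 4.80 and 9.04 normalised RPM in HOW(S)-HA against 1.35 in nanos-GAL4 (log2(fold change) 2.18, standard error 0.66, unadjusted p = 0.0345, adjusted p = 0.604 in edgeR's F-test). It was the largest fold change of a named transcript with reads in all inputs, and the HOW(S)-HA inputs were themselves 2-fold apart. The 3 whole-read dicistronic transcripts had the control inside the range on normalised RPM and above it on TPM. That for Tfb5, a TFIIH subunit, and CG31917 had 36.1, 43.1 and 37.9 against 39.0, that for Dpm2, a subunit of dolichol-phosphate mannose synthase, and CG12016 had 28.5, 24.1 and 24.9 against 24.4, and that for the polymerase III subunit Polr3K and Tcs1 had 12.5, 7.16 and 6.87 against 7.74. Those for Mvk (mevalonate kinase) and CG33672, Rpp14a and CG7950, Ppcdc and CG42496, and CG10570 and CG42502 had log2(fold change) of 0.26, 0.19, -0.05 and -0.06. Of the remaining named transcripts, CG16974 had a log2(fold change) of 0.03 and Bacc-RC one of 0.52 (adjusted p = 0.878 in edgeR's F-test).

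Transcript length moved with the difference between the HOW(S)-HA inputs and the single nanos-GAL4 input at the short end. The 47 tested transcripts of up to 300 nucleotides had a median log2(fold change) of 0.49, the 489 of 301 to 500 nucleotides one of 0.21, and the classes above 1000 nucleotides lay between -0.04 and 0.03. Nanos-GAL4 was below all 3 HOW(S)-HA inputs for 32 of the 47 (68.1%) and above them for 2, against 28.5% and 29.0% of all tested. The shift was 0.74 for input 1 and 0.28 and 0.32 for inputs 2 and 3, and was thus largest in the input of lowest depth. All 3 ratios share the same nanos-GAL4 library, so they are not independent. The shift of input 1 exceeded those of inputs 2 and 3 by more than these amounted to, so replicates of 1 line differed as well.

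**Figure D5:**
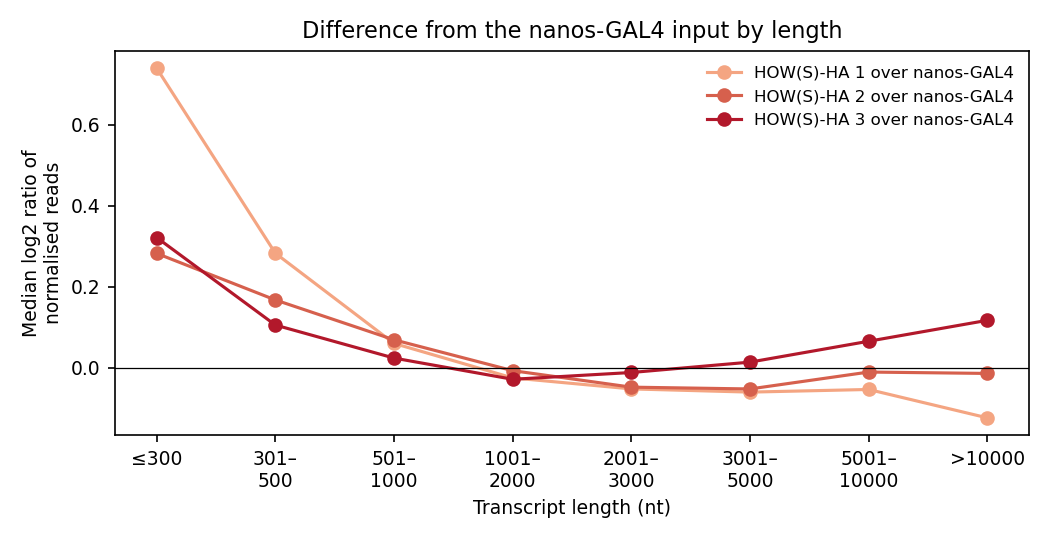
Median log2 ratio of normalised reads of each HOW(S)-HA input over the nanos-GAL4 input (y axis) by transcript length in nucleotides (x axis, 8 classes), with a line for each HOW(S)-HA input. All 3 lines are highest at up to 300 nucleotides, at 0.74, 0.28 and 0.32, and from 1001 nucleotides on they lie between -0.12 and 0.12.

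Abundance set how finely the lines could be compared. For the 4297 transcripts with a mean TPM under 1 the median SD of log2 normalised RPM among the 3 HOW(S)-HA inputs was 0.49, and it fell to 0.15 for the 1481 with a mean TPM between 30 and 100. The share with a fitted difference of at least 2-fold fell from 21.2% to 1.89% between these classes, and it was 10.6% over all tested transcripts. It was 7.61% for the 184 transcripts above a TPM of 300, whose median log2(fold change) was 0.27. Between inputs 2 and 3 alone the median SD was 0.05 in the class from 30 to 100, so much of the spread among well measured transcripts came from input 1.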

How the data were processed

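Input libraries were rRNA-depleted, stranded and sequenced single-end in 1 lane. The authors trimmed reads with cutadapt 1.1, removed rRNA and tRNA reads with Subread 2.0.0 and quantified the remainder with Salmon 0.14.2 against FlyBase transcripts of Release 6. Per the file headers, the deposited values are the TPM, relative to the total of each library, and the estimated count of reads per transcript, which is not normalised. Estimated counts were rounded, scaled with TMM factors (between 0.982 and 1.01) and tested with the legacy quasi-likelihood F-test of edgeR 4.0.16 in R 4.3.3, with Benjamini-Hochberg adjustment. Transcripts were called at an adjusted p of at most 0.05 and an absolute log2(fold change) of at least 1. Fold changes are HOW(S)-HA over nanos-GAL4. Standard errors were derived from the F statistic, and log2 RPM used a prior count of 2. The test was run on simulated counts in which all inputs varied alike, so its assumption about the single control was not checked. DESeq2 1.42.0 and limma 3.58.1 served as alternatives.

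The study took input and pull-down as its main comparison, and pull-downs were not used here. Members, lists and tests were chosen with earlier results of these data known. Named transcripts are those the study identifies by isoform or RefSeq lists as synonyms. Of 80 such identifiers 54 were matched. Of the remaining transcripts, the 5 with the smallest p value in each direction were taken by rule. At most 2 identifiers in each direction are printed. Which ones to print was chosen after their values were seen, and they are not the first by p value. FBtr0070434 was outside the 5. Gene sums over all genes and the lists of cell type markers were not analysed because identifiers were not paired with gene names for most transcripts. The p values measure the spread among 3 libraries.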

Additional observations from a re-analysis of the deposited data

How the results depend on the processing

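No paired analysis was possible because the nanos-GAL4 line has 1 input, so the groups share fewer than 2 replicate numbers. Fits summed over genes and the medians of gene lists were not run, since most identifiers have no gene name here. Over all tested transcripts, edgeR called 0 in each direction under every other filter, scaling and dispersion method tried and without any 1 HOW(S)-HA input, and limma-voom, run once, called 0. At an unadjusted p under 0.05 these settings had from 539 to 1750 higher and from 96 to 1123 lower. DESeq2's Wald test called 408 higher and 24 lower, and limma on log2(TPM + 0.5) called 3 higher. Restricted to whole-read transcripts, edgeR called 25 higher and 2 lower. Those counts became 80 and 20 with DESeq2, 45 and 64 with limma on log2(TPM + 0.5), 9 higher with inputs thinned to input 1, and 0 and 0 with at least 20 reads in all inputs. The lower count became 7 with library totals alone, 6 with limma-voom and 5 with at least 80 reads in total. Without 1 HOW(S)-HA input they ranged from 21 to 99 higher and from 1 to 75 lower. The cause of these moves was not tested, except that thinning and a stricter filter leave fewer reads or transcripts. The log2 ratio of summed how RNA was -0.21 on TPM and 0.24 on RPM. The share of transcripts with nanos-GAL4 outside the HOW(S)-HA range, 57.4%, was 71.9% on TPM, 59.0% with at least 20 reads in all inputs, and from 67.9% to 77.6% without 1 input, which narrows the range by construction. The log2(fold change) of 14 of 39 named transcripts had the opposite sign as a ratio of TPM. DESeq2 called Cdk12-RA, eIF3c-RB and how-RF, of which how-RF was at 0 reads in nanos-GAL4 and passed the filter only through the HOW(S)-HA inputs. Depth limits input 1 most, with 9.13 M reads.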
